A study of Mus musculus with 48 samples.

Results

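The 10 genes described here encode the TGF-beta ligands, the family of latent TGF-beta binding proteins and the TGF-beta receptors: Tgfb1, Tgfb2, Tgfb3, Ltbp1, Ltbp2, Ltbp3, Ltbp4, Tgfbr1, Tgfbr2 and Tgfbr3. They were taken by symbol from deposited tables of 31920 genes for left ventricle and 31741 genes for isolated cell fractions, and all 10 were present in every table. The RNA came from hearts of FVB mice of 2 genotypes, wild type and PLNR9C, given JQ1 at 50 mg/kg or vehicle. PLNR9C is a phospholamban mutation known to lead to dilated cardiomyopathy (DCM). Left ventricles were taken at 8 weeks (labelled preDCM in PLNR9C) and at 20 weeks (DCM), and cardiomyocytes and non-myocytes at 16 weeks (DCM). Each of these 4 sample types had the same 4 groups, wild type with vehicle, wild type with JQ1, PLNR9C with vehicle and PLNR9C with JQ1, with 3 libraries labelled as biological replicates in each, so 48 libraries in 16 groups. The fraction samples are called pooled in the labels. The sources used here do not give the number of animals in a pool or how PLNR9C is expressed.

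TGF-beta is secreted as an inactive complex: the mature ligand stays bound to its own propeptide, and that small latent complex is joined covalently to a latent TGF-beta binding protein (LTBP), which anchors it in the matrix. Integrins, proteases and thrombospondin can release the ligand, which then binds the type II receptor TGFBR2 and brings in the type I receptor kinase TGFBR1, and SMAD2 and SMAD3 carry the signal to the nucleus. TGFBR3 (betaglycan) is a coreceptor that presents ligand, TGF-beta2 above all, because TGF-beta2 binds TGFBR2 weakly without it. In the injured heart this pathway is best known for turning fibroblasts into matrix-producing myofibroblasts. JQ1 displaces BET proteins, which read acetylated histones at active genes.

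In the deposited coordinates, Tgfb1 lies at chr7:25687002-25704996 on the plus strand, Tgfb2 at chr1:186623186-186705992 on the minus strand, Tgfb3 at chr12:86056743-86079041 on the minus strand and Tgfbr1 at chr4:47353305-47414924 on the plus strand. These are GRCm38 (mm10) positions, per the submitters' processing notes. RefSeq's promoter table for GRCm38.p6 held windows for 8 of the 10 genes, more than 1 for some, and the Tgfbr1 window nearest to the deposited start is shown. The 250 bases before the annotated start are shown for Tgfb1 and Tgfbr1, which both rose with JQ1 in both ventricle sets, and for Tgfb2, which fell with JQ1 and showed the greatest rise of the 3 ligands in PLNR9C ventricle. Capitals mark matches, on either strand, to a GC box, an E-box, a TATA sequence, a cyclic AMP response element, an AP-1 site or either of 2 SMAD sequences.
Tgfb1, chr7:25686752-25687001, plus strand: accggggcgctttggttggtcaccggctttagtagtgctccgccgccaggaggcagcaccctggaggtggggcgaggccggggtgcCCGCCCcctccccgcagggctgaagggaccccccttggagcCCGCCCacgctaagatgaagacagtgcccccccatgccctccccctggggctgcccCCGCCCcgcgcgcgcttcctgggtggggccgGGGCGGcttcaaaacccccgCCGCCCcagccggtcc
Tgfb2, chr1:186705990-186706239, minus strand: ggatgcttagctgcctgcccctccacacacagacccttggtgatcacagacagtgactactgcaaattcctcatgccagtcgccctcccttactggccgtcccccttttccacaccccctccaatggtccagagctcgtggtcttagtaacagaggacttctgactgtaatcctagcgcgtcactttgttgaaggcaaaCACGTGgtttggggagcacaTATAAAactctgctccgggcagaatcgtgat
Tgfbr1, chr4:47352972-47353221, plus strand: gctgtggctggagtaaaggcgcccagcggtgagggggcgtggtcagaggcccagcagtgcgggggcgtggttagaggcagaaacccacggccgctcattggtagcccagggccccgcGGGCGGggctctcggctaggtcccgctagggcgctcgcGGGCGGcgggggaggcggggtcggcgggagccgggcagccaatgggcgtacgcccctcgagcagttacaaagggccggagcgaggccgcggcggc
The Tgfb1 window was 75.2% G or C and held 5 GC boxes, and the Tgfbr1 window was 74.8% G or C and held 2. The Tgfb2 window was 53.6% G or C, with no GC box, a TATAAA whose first base lies 31 bases before the start and a CACGTG beginning 51 bases before it. A GC box (GGGCGG) stood in 32.7% of 32851 RefSeq windows of the same length, TATAAA in 12.4% and the E-box CACGTG in 6.02%. The cyclic AMP response element TGACGTCA was present in 1.55% of windows and the AP-1 site TGANTCA in 6.75%. The SMAD palindrome GTCTAGAC was present in 0.167% and the SMAD repeat CAGACAGAC in 0.6%. None of these last 4 patterns had a match in the 3 windows shown. Among windows not shown, all 3 for Ltbp4, which fell with JQ1 in ventricle, held GC boxes and were 64.4% to 79.2% G or C. The Ltbp2 window (61.6%) held GC boxes too, and the Tgfbr2 (58.4%) and Ltbp3 (47.2%) windows held none. The Ltbp1 window at chr17:75005279-75005528 held the cyclic AMP response element TGACGTCA, beginning 73 bases before the start. The other Ltbp1 window and the other Tgfbr1 window held no match to any pattern. A link between these letters and the response to JQ1 was not tested. A match is only a run of letters, and no binding was measured.

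Reads in genes per library ran from 16984138 to 27086694 at 8 weeks, from 18415351 to 26730918 at 20 weeks, from 10249780 to 13146653 in cardiomyocytes and from 10041094 to 11815003 in non-myocytes. Values called CPM are reads scaled to library size after TMM scaling within a sample type, so they compare libraries of that type. The fractions carried their labels' markers: 12 cardiomyocyte markers summed to 70333 to 117390 CPM of the unscaled library total in cardiomyocyte libraries against 1947.5 to 10878 in non-myocyte libraries, and 12 fibroblast markers to 479.56 to 7895.9 against 21335 to 41952. No marker of either list was at 0 in any group. Fibroblast markers in cardiomyocyte libraries were higher in PLNR9C, moving from 479.56 to 646.77 in wild type vehicle to 1934.9 to 2766.4 in PLNR9C vehicle, and replicate 2 of PLNR9C cardiomyocytes with JQ1 stood apart with 7895.9 (2166.3 and 4060.7 in replicates 1 and 3) and 971.66 for macrophage markers (257.25 and 428.93). In ventricle the fibroblast sum was 2366.2 to 2862.2 in wild type and 3502 to 3822 in PLNR9C at 8 weeks, and 2361.3 to 2546.7 and 7380.4 to 9240.6 at 20 weeks. The macrophage sum was 194.67 to 255.49 and 578.13 to 645.95 at 8 weeks and 221.26 to 244.63 and 759.34 to 1089.5 at 20 weeks. In non-myocyte libraries with vehicle the fibroblast sum was 23653 to 24417 in wild type and 33993 to 38196 in PLNR9C, and the macrophage sum 1781.6 to 2096.9 and 4634.4 to 5536. The endothelial sum there was 6660.9 to 8325.3 and 4036 to 5171.1, and the sum for pericytes and smooth muscle 3429.6 to 4057 and 2057.8 to 2631. What part such shifts play in the differences below was not tested. In bulk samples, fewer cells of a type and less RNA per cell cannot be told apart. Scaling by library totals in place of TMM moved the median log2 change of all genes to 0.128 and 0.27 for genotype at 8 and 20 weeks, to between -0.192 and -0.057 for JQ1, and to -1.096 for cardiomyocytes against non-myocytes, and changes are given relative to these shifts by TMM.

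Tgfb2 was the ligand that changed most. At 8 weeks the PLNR9C vehicle ventricles had 36.1, 49 and 28 CPM of Tgfb2 and the wild type ones 13.7, 16.3 and 19.2, a log2 difference of 1.20 ± 0.22 (SE, n = 3 against 3; edgeR adjusted p = 0.0057). At 20 weeks the PLNR9C values were 131, 136 and 160 CPM against 14.9, 20.3 and 19.3 in wild type, a log2 difference of 2.97 ± 0.21 or 7.82-fold (edgeR adjusted p = 1.1e-06). In both sets every PLNR9C library exceeded every wild type library. The genotype difference was itself larger at 20 weeks, by 1.78 ± 0.32 on the log2 scale (edgeR adjusted p = 0.00097).

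With JQ1, Tgfb2 in PLNR9C ventricle came to 16.3, 24.8 and 23 CPM at 8 weeks and to 52.8, 92.7 and 62.1 CPM at 20 weeks. It fell by 0.82 ± 0.22 and by 1.04 ± 0.19 on the log2 scale (edgeR adjusted p = 0.016 and 0.0025), and the JQ1 libraries did not overlap the vehicle libraries at either age. At 20 weeks all 3 JQ1-treated PLNR9C libraries still lay above all wild type libraries with vehicle. In wild type ventricle JQ1 gave 11.7, 11.7 and 9.38 CPM at 8 weeks and 8.79, 10.8 and 11.5 CPM at 20 weeks. The log2 change there was -0.59 ± 0.24 at 8 weeks (edgeR adjusted p = 0.093; 0.0132 with DESeq2) and -0.81 ± 0.23 at 20 weeks (edgeR adjusted p = 0.024). The 20-week call in wild type was lost without any of 5 of its 6 libraries (edgeR adjusted p of 0.051 to 0.1) and with no filter on low counts (0.0552).

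In the fractions, the Tgfb2 increase was seen in cardiomyocytes. PLNR9C cardiomyocytes with vehicle had 94.6, 93.4 and 196 CPM and wild type cardiomyocytes 9.75, 12.7 and 10.1, a log2 difference of 3.56 ± 0.31 or 11.8-fold (edgeR adjusted p = 2.3e-05). Replicate 3 held the highest value, and without any one of the 12 libraries the difference stayed between 3.11 and 3.74. Non-myocytes had 31.9, 31 and 34.8 CPM in PLNR9C and 26.2, 28.2 and 26.8 in wild type, a log2 difference of 0.27 ± 0.11 that missed the threshold (edgeR adjusted p = 0.11). The genotype difference was larger in cardiomyocytes than in non-myocytes by 3.24 ± 0.33 on the log2 scale (edgeR adjusted p = 3.1e-06). The fibroblast markers named above were higher in these PLNR9C cardiomyocyte libraries too, at 6.297% of their non-myocyte level. The endothelial sum stood at 14.92% there and the sum for pericytes and smooth muscle at 47.47%. Tgfb2 stood at 392.5% of its own non-myocyte level. What part RNA from other cells plays in the Tgfb2 values was not tested.

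JQ1 lowered Tgfb2 in non-myocytes of both genotypes. PLNR9C non-myocytes with JQ1 had 21.4, 18.9 and 23 CPM (log2 change -0.63 ± 0.11, edgeR adjusted p = 0.00067) and wild type ones 16.3, 15.8 and 18.9 (log2 change -0.67 ± 0.11, edgeR adjusted p = 0.00043). In PLNR9C cardiomyocytes the JQ1 libraries had 57.4, 56.9 and 91.1 CPM, each below each of the 3 vehicle libraries, but the log2 change of -0.90 ± 0.27 missed the threshold (edgeR adjusted p = 0.056). That change passed with DESeq2 (adjusted p = 0.0166), with library totals (0.0349) and without robust estimation (0.0453), and it ranged from -1.15 to -0.46 when single libraries were left out. Wild type cardiomyocytes with JQ1 had 7.96, 8.45 and 8.65 CPM (log2 change -0.38 ± 0.32, edgeR adjusted p = 0.56).

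Tgfb1, the isoform best known from fibrosis, changed little with genotype and rose with JQ1. Wild type ventricle held 31.6, 30.5 and 32.3 CPM at 8 weeks and 26.7, 31.4 and 34.2 at 20 weeks, and PLNR9C ventricle 35.1, 34.8 and 36.7 and then 38.6, 35.1 and 39.7. The groups did not overlap, but the difference was small: log2 0.18 ± 0.06 at 8 weeks (edgeR adjusted p = 0.077) and 0.30 ± 0.10 at 20 weeks (0.021). The 20-week call was lost without replicates 1 or 3 of PLNR9C vehicle or replicate 1 of wild type vehicle (edgeR adjusted p of 0.065 to 0.11), and with library totals the values were 0.30 at 8 weeks (0.00469) and 0.56 at 20 weeks.

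Under JQ1, Tgfb1 reached 54.5, 52.7 and 53.4 CPM in PLNR9C ventricle at 8 weeks and 55.7, 60.7 and 64.1 at 20 weeks. The log2 rises were 0.59 ± 0.06 (edgeR adjusted p = 1.4e-06) and 0.67 ± 0.10 (7.2e-05). In wild type ventricle JQ1 gave 50.1, 46.9 and 47.3 CPM (log2 0.61 ± 0.06, edgeR adjusted p = 1e-06) and 39.7, 41.2 and 47.9 CPM (0.48 ± 0.10, 0.0017). Every JQ1 library exceeded every vehicle library of its genotype and age. Non-myocytes rose from 127, 125 and 109 CPM to 240, 200 and 195 in wild type (log2 0.81 ± 0.10, edgeR adjusted p = 5.1e-05), and from 132, 127 and 137 CPM to 197, 230 and 219 in PLNR9C (0.71 ± 0.10, 0.00015).

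Cardiomyocytes held less Tgfb1 and gave a less certain response. Wild type cardiomyocytes had 18.3, 18 and 17 CPM with vehicle and 33, 27.4 and 22 with JQ1, a log2 change of 0.63 ± 0.27 (edgeR adjusted p = 0.24). PLNR9C cardiomyocytes had 26.3, 16.5 and 22 CPM with vehicle and 30.2, 67.1 and 37.2 with JQ1, a log2 change of 1.06 ± 0.27 (edgeR adjusted p = 0.03). The 67.1 CPM came from replicate 2, the library with the high fibroblast and macrophage sums. Without it the change was 0.64 (edgeR adjusted p = 0.0804). It was also lost without replicate 2 or 3 of the vehicle group (0.104 and 0.0662) and with library totals (0.057).

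Tgfb3 followed Tgfb2 in ventricle at a lower amplitude. PLNR9C ventricle had 32.3, 29.1 and 28 CPM at 8 weeks against 21.3, 24.1 and 22.4 in wild type, a log2 difference of 0.40 ± 0.10 (edgeR adjusted p = 0.013, and 0.073 or 0.07 without replicate 1 of either group). At 20 weeks it had 74.2, 80.1 and 91.1 CPM against 21.5, 20.6 and 26, a log2 difference of 1.85 ± 0.10 or 3.61-fold (edgeR adjusted p = 2.1e-10). No library of 1 genotype overlapped the other. The difference grew between the ages by 1.46 ± 0.15 on the log2 scale (edgeR adjusted p = 8.5e-08).

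JQ1 took Tgfb3 in PLNR9C ventricle to 20.9, 19.6 and 16.2 CPM at 8 weeks (log2 -0.65 ± 0.10, edgeR adjusted p = 9.1e-05) and to 38.8, 44.8 and 40.3 CPM at 20 weeks (-0.98 ± 0.10, 1.6e-06). At 8 weeks these values lay below all wild type vehicle libraries, and at 20 weeks they lay above them. Wild type ventricle with JQ1 had 21.8, 17.5 and 17.9 CPM and 17.5, 18.8 and 19.8 CPM, with log2 changes of -0.25 ± 0.11 and -0.28 ± 0.11 that missed the threshold (edgeR adjusted p = 0.082 and 0.06) and passed with library totals (0.0474 and 0.0127). At 20 weeks the JQ1 effect on Tgfb3 was larger in PLNR9C than in wild type by -0.71 ± 0.14 (edgeR adjusted p = 0.04). That call was lost without any of 8 libraries left out in turn (edgeR adjusted p of 0.073 to 0.11), without robust estimation (0.0556) and with library totals (0.0513).

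In the fractions, Tgfb3 had 42.1, 29.6 and 36.6 CPM in PLNR9C cardiomyocytes against 17.7, 14.8 and 11 in wild type (log2 1.31 ± 0.21, edgeR adjusted p = 0.00087). Non-myocytes had 132, 110 and 129 CPM against 105, 99.6 and 90.2 (log2 0.33 ± 0.16, edgeR adjusted p = 0.17). The genotype difference was larger in cardiomyocytes by 0.93 ± 0.27 on the log2 scale (edgeR adjusted p = 0.037), a call lost without any of 8 libraries left out in turn (0.056 to 0.11). With JQ1, PLNR9C non-myocytes had 67.7, 107 and 101 CPM (log2 -0.43 ± 0.16, edgeR adjusted p = 0.049), at the edge of the threshold. The call was lost in 9 of the 12 fits that left out 1 library (edgeR adjusted p of 0.0506 to 0.202, with a change of -0.23 without replicate 1), with RLE scaling (0.0503), with no filter on low counts (0.0578), without robust estimation (0.0501) and with the replicate block (0.0602). PLNR9C cardiomyocytes with JQ1 had 23.7, 36.3 and 30.3 CPM, and wild type cardiomyocytes with JQ1 had 12, 9.7 and 14.9 CPM. Neither JQ1 comparison in cardiomyocytes passed (log2 -0.26 ± 0.21 and -0.25 ± 0.22, edgeR adjusted p = 0.45 and 0.59). Wild type non-myocytes with JQ1 had 71.6, 64.2 and 87.2 CPM, below their 3 vehicle libraries, with a log2 change of -0.40 ± 0.16 (edgeR adjusted p = 0.063). That change passed with library totals (-0.59, 0.00345) and without replicate 3 of its own JQ1 group (-0.52, 0.0377) or replicate 1 of PLNR9C with JQ1 (0.0173).

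**Figure D1:**
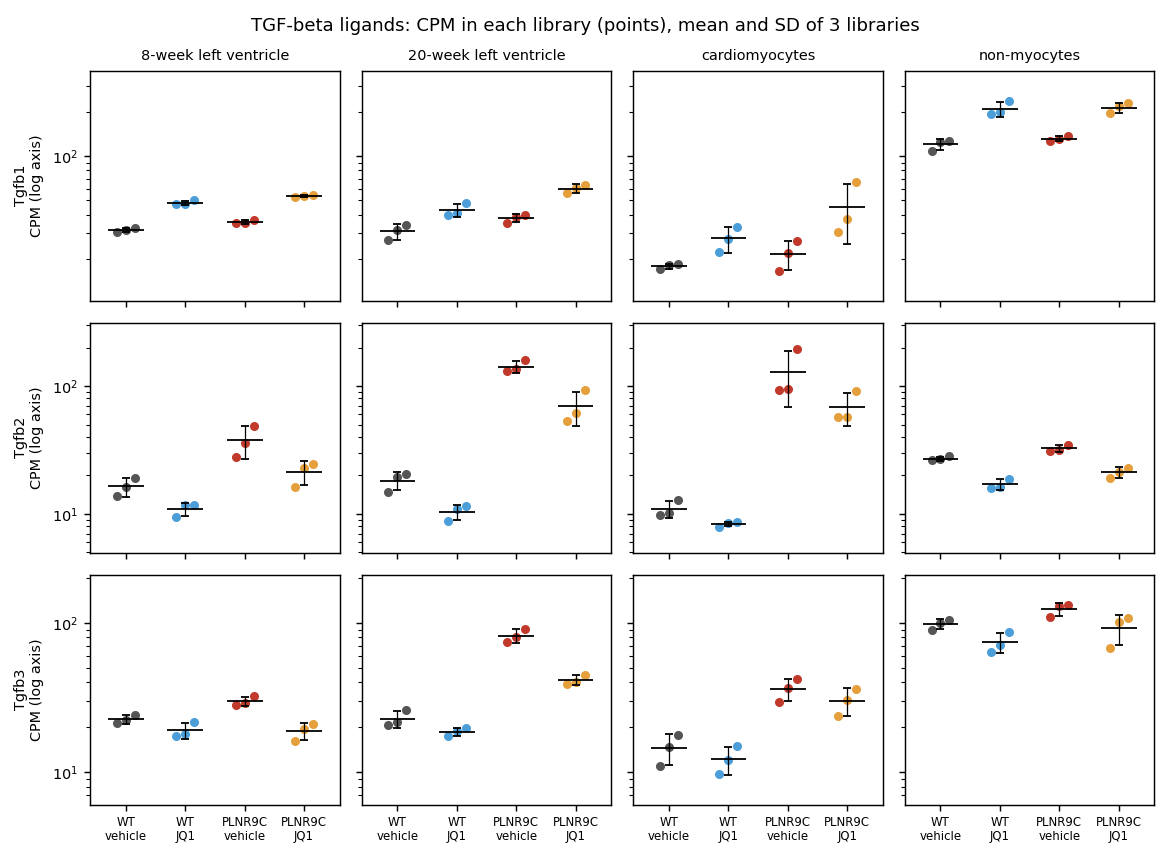
Level of each TGF-beta ligand in each library, as CPM scaled within the sample type, on a log axis, with the mean and SD of 3 libraries per group; cardiomyocyte and non-myocyte panels are scaled separately. Tgfb1 points are higher in JQ1 groups than in their vehicle groups in ventricle and non-myocytes, and Tgfb2 points stand highest in PLNR9C vehicle, at 131 to 160 CPM in 20-week ventricle and 93.4 to 196 in cardiomyocytes.

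Levels of different genes were compared as RPKM, the deposited value scaled to gene length and library size. By group mean, Tgfb1 was the highest of the 3 ligands in 14 of 16 groups, and Tgfb2 in the other 2, which were PLNR9C vehicle ventricle at 20 weeks and PLNR9C vehicle cardiomyocytes. In PLNR9C cardiomyocytes with JQ1, Tgfb1 (14.37 to 37.11 RPKM) and Tgfb2 (11.89 to 19.33) overlapped. The highest Tgfb1 value there came from replicate 2, the library with the high fibroblast and macrophage sums. In 20-week wild type ventricle with vehicle the order was Tgfb1 (13.85 ± 1.89 RPKM, SD, n = 3), Tgfb3 (6.31 ± 0.85) and Tgfb2 (3.57 ± 0.61). In PLNR9C it was Tgfb2 (33.31 ± 3.41), Tgfb3 (27.21 ± 2.50) and Tgfb1 (20.35 ± 1.59). Tgfb2 then made up 41.15% ± 0.9191 (SD, n = 3) of summed ligand RPKM against 15.01% ± 1.499 in wild type, and 25.68% ± 4.946 with JQ1. The Tgfb1 share moved the other way, from 58.32% in wild type to 25.21% in PLNR9C and 52.19% in PLNR9C with JQ1.

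At 8 weeks the Tgfb2 share was 13.54% ± 1.809 in wild type, 23.11% ± 5.237 in PLNR9C and 12.47% ± 2.562 in PLNR9C with JQ1. In cardiomyocytes it was 15.08% ± 2.208, 54.53% ± 10.83 and 32.99% ± 10.2. In non-myocytes it was 6.129% ± 0.5079, 6.372% ± 0.2311 and 3.301% ± 0.535. The genotypes stood apart in ventricle and cardiomyocytes, and in non-myocytes given vehicle their ranges overlapped (5.598% to 6.609% in wild type and 6.106% to 6.528% in PLNR9C).

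**Figure D2:**
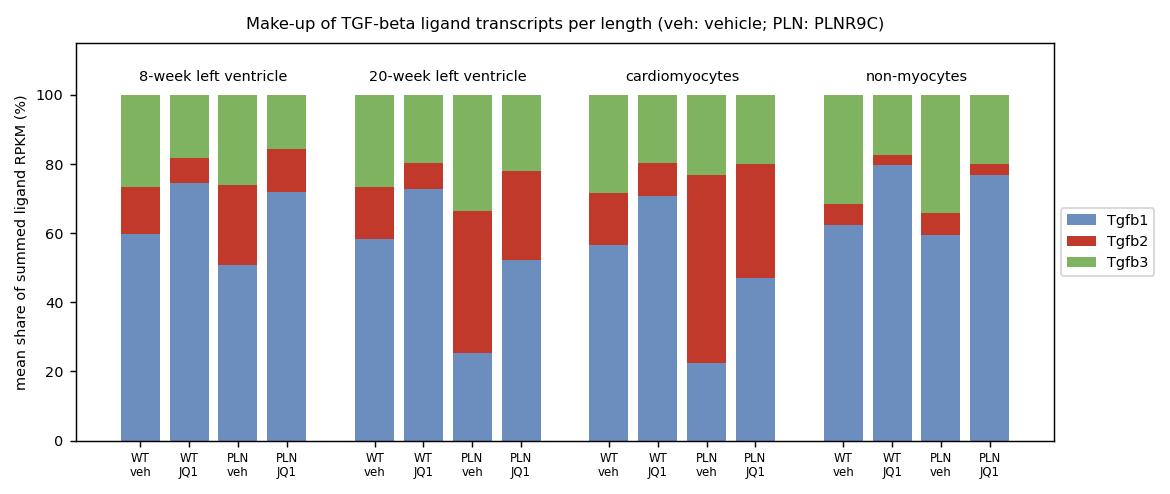
Mean share of each ligand in summed ligand RPKM, in percent, for the 16 groups of 3 libraries. The Tgfb2 part is 41.15% in 20-week PLNR9C ventricle and 54.53% in PLNR9C cardiomyocytes with vehicle, and at most 6.372% in any non-myocyte group.

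Among the latent binders, Ltbp2 changed most. LTBP2 is unusual in the family because it does not bind latent TGF-beta, and it associates with fibrillin microfibrils. In 8-week ventricle it was low in every group, with 5.69, 7.54 and 6.97 CPM in PLNR9C and 3.52, 5.88 and 9.8 in wild type (log2 0.06 ± 0.43, edgeR adjusted p = 0.96). At 20 weeks it had 213, 216 and 182 CPM in PLNR9C against 4.16, 6.04 and 8.82 in wild type, a log2 difference of 5.02 ± 0.32 or 32.5-fold (edgeR adjusted p = 1.4e-06). The genotype difference grew by 4.98 ± 0.53 on the log2 scale between the ages (edgeR adjusted p = 7e-06). JQ1 took the 20-week PLNR9C values to 62.9, 111 and 85.8 CPM (log2 -1.24 ± 0.25, edgeR adjusted p = 0.0058), still above all wild type libraries. In wild type ventricle the mean was also lower with JQ1, at 3.74 CPM against 6.34 with vehicle at 20 weeks. At 8 weeks it was 4.05 against 6.40 CPM, and the libraries overlapped at both ages. Neither wild type change passed, nor did the genotype difference in the JQ1 effect at either age. The 8-week wild type change passed without replicate 1 of its JQ1 group (log2 -1.34, edgeR adjusted p = 0.0132).

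Ltbp2 was higher in non-myocytes than in cardiomyocytes. Non-myocytes had 712, 325 and 680 CPM in PLNR9C against 61.5, 76.3 and 67.3 in wild type (log2 3.07 ± 0.42, edgeR adjusted p = 0.00089), in libraries whose fibroblast and macrophage sums were also higher in PLNR9C. Cardiomyocytes had 46.2, 17 and 40.6 CPM against 2.66, 3.87 and 3.22 (log2 3.40 ± 0.74, edgeR adjusted p = 0.0067). In PLNR9C cardiomyocytes with vehicle, Ltbp2 stood at 6.176% of its non-myocyte level, beside 6.297% for the fibroblast marker sum and 6.324% for the macrophage marker sum. The endothelial sum stood at 14.92% and the sum for pericytes and smooth muscle at 47.47%. The source of these Ltbp2 reads was not tested. With JQ1, PLNR9C non-myocytes had 219, 487 and 596 CPM (log2 -0.40 ± 0.39, edgeR adjusted p = 0.46) and PLNR9C cardiomyocytes 11.1, 80.5 and 53.9 CPM (0.49 ± 0.61, 0.65), each overlapping its vehicle group. The gene lies at chr12:84783212-84876495 on the minus strand and shares 764 exonic bases in GENCODE M21 with D030025P21Rik on the plus strand. The sources used here do not say whether counting used strand, so reads of the pair cannot be told apart.

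Ltbp3, a binder needed for secretion of latent TGF-beta1, rose with genotype. At 20 weeks ventricle had 221, 230 and 203 CPM in PLNR9C against 81.3, 85.3 and 77.9 in wild type (log2 1.42 ± 0.07, edgeR adjusted p = 8.2e-11), and 157, 163 and 149 CPM with JQ1 (log2 -0.48 ± 0.07, edgeR adjusted p = 7.3e-05). In wild type JQ1 left it at 84.8, 81.8 and 90.3 CPM (log2 0.07 ± 0.07, edgeR adjusted p = 0.5). The JQ1 effect differed between genotypes by -0.56 ± 0.10 (edgeR adjusted p = 0.028), a call lost without any of 5 libraries left out in turn (0.052 to 0.084). At 8 weeks PLNR9C had 89.5, 92.2 and 89.8 CPM against 80.3, 76.2 and 87.8 (log2 0.15 ± 0.06, edgeR adjusted p = 0.11; 0.27 and 0.007 with library totals).

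Ltbp3 also rose in both fractions, in which the fibroblast sum was higher in PLNR9C too. PLNR9C non-myocytes had 587, 486 and 600 CPM against 293, 290 and 274 in wild type (log2 0.97 ± 0.15, edgeR adjusted p = 0.00051). PLNR9C cardiomyocytes had 112, 87.7 and 103 CPM against 61.8, 58.3 and 60.8 (log2 0.75 ± 0.19, edgeR adjusted p = 0.011). JQ1 changed it in neither fraction of either genotype at the threshold (edgeR adjusted p of 0.44 to 0.98).

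Ltbp1 was the binder that fell. Ventricle had 90.8, 96.6 and 102 CPM in PLNR9C against 113, 120 and 121 in wild type at 8 weeks (log2 -0.29 ± 0.06, edgeR adjusted p = 0.0037), and 85.2, 92.3 and 91.9 against 127, 114 and 108 at 20 weeks (-0.37 ± 0.07, 0.00048). The groups did not overlap. With library totals these were -0.17 and -0.11 and no longer passed (adjusted p = 0.0907 and 0.182). In cardiomyocytes it had 50.2, 53.1 and 63.1 CPM against 85.7, 90.7 and 76.7 (log2 -0.61 ± 0.15, edgeR adjusted p = 0.0095), and in non-myocytes 245, 259 and 233 against 364, 351 and 342 (-0.52 ± 0.09, 0.00097). JQ1 lowered it in wild type non-myocytes, to 284, 276 and 309 CPM (log2 -0.28 ± 0.09, edgeR adjusted p = 0.019; -0.47 with library totals), a call lost without any of 4 libraries left out in turn (0.051 to 0.082). In the other 7 JQ1 comparisons it did not pass.

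Ltbp4, a binder of latent TGF-beta1 that also takes part in elastic fibre assembly, was the most abundant binder per length in all 16 groups, with 68.65% to 89.89% of summed LTBP RPKM. At 20 weeks ventricle had 1285, 1357 and 1190 CPM in PLNR9C against 809, 814 and 813 in wild type (log2 0.65 ± 0.10, edgeR adjusted p = 3.3e-05), and at 8 weeks 751, 728 and 710 against 714, 659 and 790 (0.02 ± 0.09, 0.94). JQ1 lowered it in ventricle of both genotypes at both ages. The log2 changes were -0.45 ± 0.09 and -0.63 ± 0.10 in PLNR9C at 8 and 20 weeks (edgeR adjusted p = 0.0018 and 0.00014), and -0.51 ± 0.09 and -0.56 ± 0.10 in wild type (0.00078 and 0.00044). In wild type, for instance, 8-week libraries with JQ1 had 531, 495 and 491 CPM and 20-week ones 619, 440 and 588.

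In non-myocytes the Ltbp4 level showed no genotype difference past the threshold: 4304, 4684 and 4790 CPM in PLNR9C against 4491, 4486 and 4682 in wild type (log2 0.01 ± 0.16, edgeR adjusted p = 0.97). JQ1 brought 2667, 3759 and 4132 CPM in PLNR9C (log2 -0.38 ± 0.16, edgeR adjusted p = 0.07, and 0.0223 with DESeq2) and 3912, 3891 and 3701 CPM in wild type (-0.25 ± 0.16, 0.23). Both passed with library totals (log2 -0.54 and -0.43, adjusted p = 0.00976 and 0.0291). Without replicate 1 of PLNR9C with JQ1 the PLNR9C change was -0.20, and without its replicate 3 it was -0.49 and passed (0.0486). All of these JQ1 libraries lay below all vehicle libraries of their genotype. In PLNR9C cardiomyocytes the JQ1 libraries had 227, 779 and 470 CPM against 375, 309 and 366 with vehicle, and replicate 2, with its high fibroblast sum, was again the highest (log2 0.49 ± 0.32, edgeR adjusted p = 0.34). The change was -0.0070 without replicate 2 (edgeR adjusted p = 0.989) and 0.86 without replicate 1 of the JQ1 group (0.00755).

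**Figure D3:**
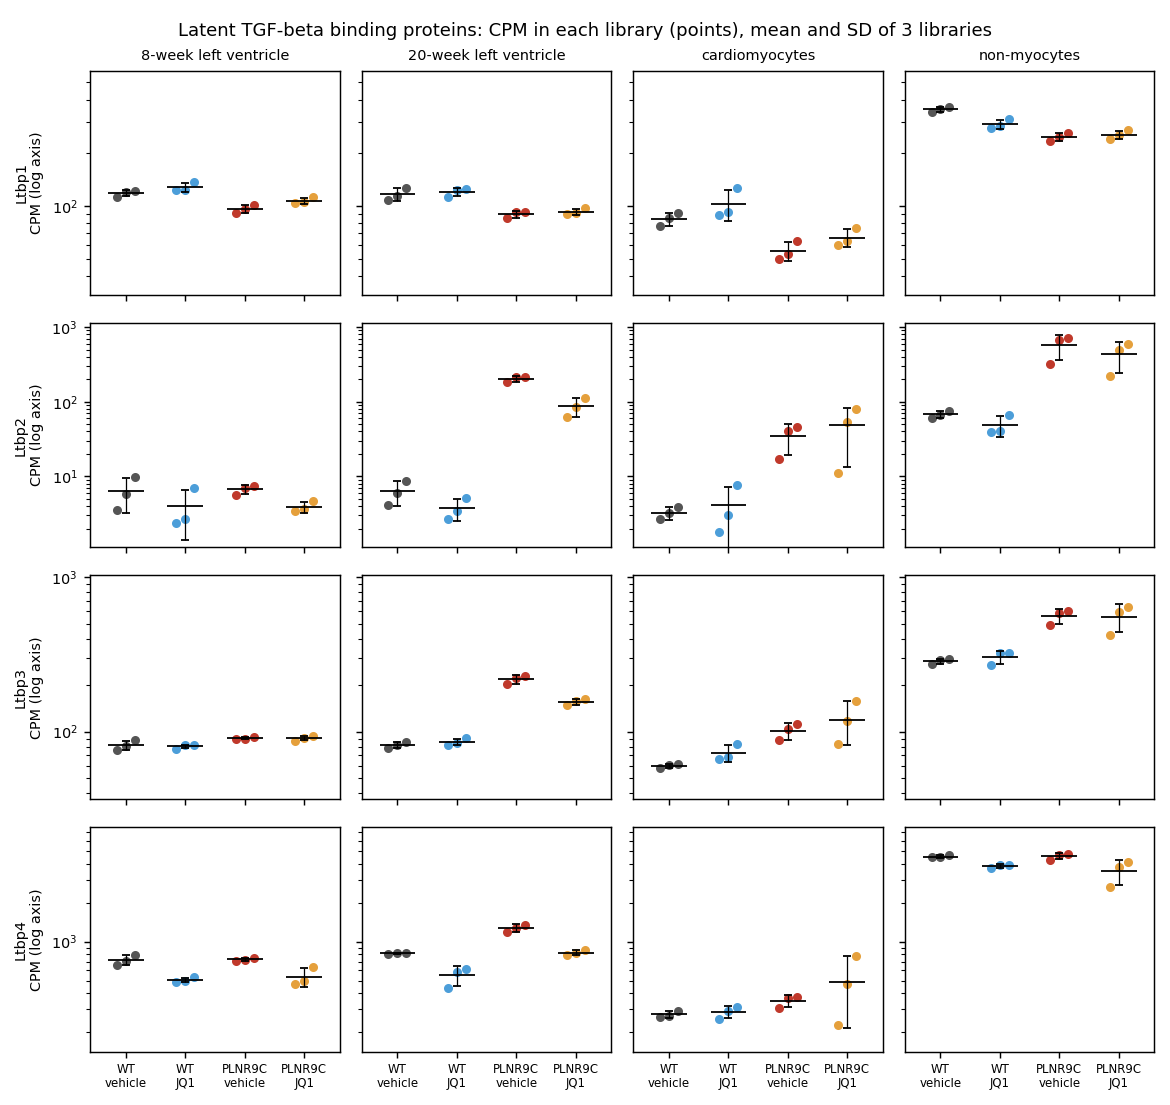
Level of each latent TGF-beta binding protein gene in each library, as CPM scaled within the sample type, on a log axis, with the mean and SD of 3 libraries; panels of each sample type are scaled separately, and 1 SD bar (Ltbp2, wild type cardiomyocytes with JQ1) runs below the axis. Ltbp2 is between 2.4 and 9.8 CPM in every 8-week library and between 182 and 216 CPM in 20-week PLNR9C ventricle with vehicle.

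Tgfbr1 and Tgfbr2 rose with genotype and moved apart under JQ1. Tgfbr1, the type I kinase, had 44.2, 48.7 and 40.7 CPM in 8-week PLNR9C ventricle against 33, 33.8 and 36.5 in wild type (log2 0.37 ± 0.07, edgeR adjusted p = 0.0016), and 54.2, 48.6 and 46.7 against 31.2, 38.2 and 38.2 at 20 weeks (0.48 ± 0.10, 0.00077; 0.74 with library totals). Tgfbr2, the ligand-binding type II kinase, had 94.3, 105 and 92.8 CPM against 65.5, 74.3 and 74.6 at 8 weeks (log2 0.45 ± 0.07, edgeR adjusted p = 0.00024), and 140, 114 and 135 against 68.9, 79.7 and 88.8 at 20 weeks (0.71 ± 0.10, 7.8e-06). PLNR9C libraries exceeded wild type libraries throughout.

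JQ1 raised Tgfbr1 and lowered Tgfbr2 in ventricle of both genotypes. In PLNR9C, Tgfbr1 reached 56.2, 58.5 and 58.8 CPM at 8 weeks (log2 0.38 ± 0.07, edgeR adjusted p = 0.0004) and 53.8, 63.2 and 69.1 at 20 weeks (0.31 ± 0.10, 0.021), where 1 library overlapped the vehicle group. The 20-week call was lost without any of 4 libraries left out in turn (0.059 to 0.11) and with library totals (log2 0.24, adjusted p = 0.0855). Tgfbr2 came to 66.3, 66.9 and 61.7 CPM at 8 weeks (log2 -0.58 ± 0.07, edgeR adjusted p = 4.1e-06) and to 98.2, 102 and 104 at 20 weeks (-0.35 ± 0.09, 0.0084). In wild type, Tgfbr1 rose by 0.59 ± 0.07 and 0.43 ± 0.10 (edgeR adjusted p = 5.2e-06 and 0.0044), and Tgfbr2 changed by -0.46 ± 0.07 and -0.49 ± 0.10 (7.4e-05 and 0.0011) at 8 and 20 weeks. The difference between genotypes in these JQ1 effects did not pass for either receptor at either age (edgeR adjusted p of 0.78 to 0.93).

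Both kinases were also higher in PLNR9C non-myocytes, beside the higher fibroblast and macrophage sums and the lower endothelial and pericyte sums given above. Tgfbr2 had 658, 623 and 600 CPM in PLNR9C against 379, 368 and 339 in wild type (log2 0.79 ± 0.09, edgeR adjusted p = 7.8e-05), and Tgfbr1 had 138, 141 and 197 against 94.4, 96.2 and 94.1 (0.74 ± 0.12, 0.0011). With JQ1, Tgfbr2 fell to 436, 478 and 488 CPM in PLNR9C (log2 -0.43 ± 0.09, edgeR adjusted p = 0.0028) and to 310, 295 and 279 in wild type (-0.30 ± 0.09, 0.021; -0.48 with library totals). The wild type call was lost without any of 4 libraries left out in turn (0.065 to 0.088). Tgfbr1 rose to 136, 152 and 159 CPM in wild type (log2 0.65 ± 0.12, edgeR adjusted p = 0.0011), and in PLNR9C it had 174, 193 and 202 CPM (0.26 ± 0.12, 0.12; 0.44 and 0.0035 without replicate 3 of the vehicle group).

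In cardiomyocytes neither receptor passed for genotype (Tgfbr1 log2 0.63 ± 0.28, edgeR adjusted p = 0.12; Tgfbr2 0.76 ± 0.28, 0.064, and 0.0329 with DESeq2). The Tgfbr1 value was 0.13 without replicate 3 of PLNR9C vehicle and 0.89, which passed (0.0265), without its replicate 1. Tgfbr2 passed in 3 of the 12 fits that left out 1 library (0.0114 to 0.0498). Tgfbr2 had 52.2, 40.6 and 52.9 CPM in PLNR9C cardiomyocytes with vehicle against 22.2, 27 and 36.6 in wild type, with no overlap, and 36.6, 91.4 and 60.7 with JQ1. The 91.4 again belonged to replicate 2. Tgfbr1 had 23.6, 30.4 and 61.1 CPM against 22.6, 26.7 and 24.9, so 1 PLNR9C library lay within the wild type range.

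Tgfbr3, the betaglycan coreceptor, differed from the other 2 receptors. It had 98.3, 95.2 and 93.5 CPM against 105, 97.6 and 90.5 in 8-week ventricle (log2 -0.03 ± 0.08, edgeR adjusted p = 0.88) and 80.2, 80.2 and 62.1 against 104, 105 and 107 at 20 weeks (-0.50 ± 0.10, 0.00032; -0.24 with library totals, 0.0442). The genotype difference changed with age by -0.47 ± 0.13 (edgeR adjusted p = 0.015), and that call was lost without replicate 3 of 20-week PLNR9C vehicle (-0.36, 0.053) and with library totals (-0.34, 0.0748). JQ1 lowered Tgfbr3 in 20-week wild type ventricle to 95.9, 78.7 and 79.8 CPM (log2 -0.31 ± 0.10, edgeR adjusted p = 0.022), a call lost without any of 4 libraries left out in turn (0.055 to 0.099). Tgfbr3 passed in none of the other JQ1 comparisons with TMM. With library totals it passed in 8-week PLNR9C ventricle (log2 -0.25, edgeR adjusted p = 0.0169). Of the 3 receptors, Tgfbr2 had the highest RPKM in 9 groups and Tgfbr3 in 7, while Tgfbr1 was the highest in none.

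**Figure D4:**
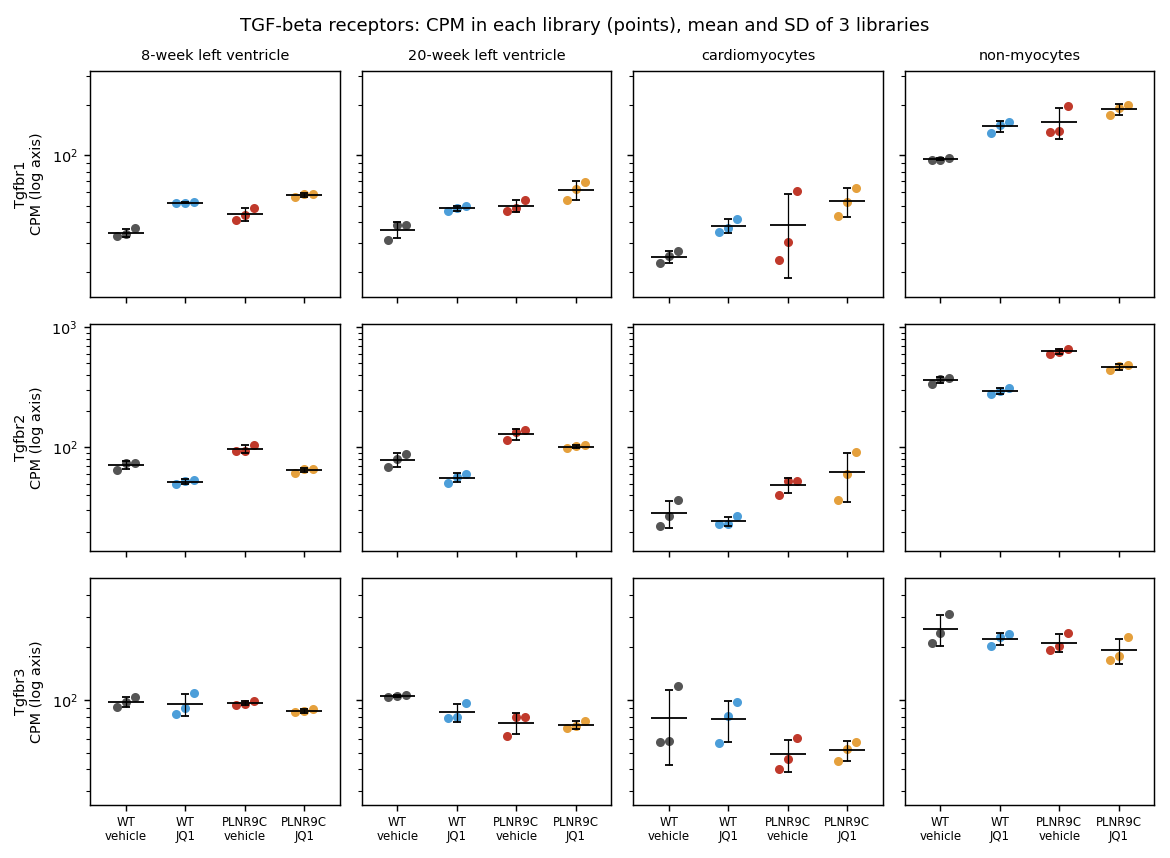
Level of each TGF-beta receptor gene in each library, as CPM scaled within the sample type, on a log axis, with the mean and SD of 3 libraries. In ventricle, Tgfbr1 is higher and Tgfbr2 lower in JQ1 groups than in their vehicle groups.

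For the cell of origin, CPM of the unscaled library total in cardiomyocytes were set against those in non-myocytes. In wild type vehicle, Ltbp2 in cardiomyocytes was 4.343% of the non-myocyte mean, Ltbp4 5.5%, Tgfbr2 7.185%, Tgfb1 13.48%, Tgfb3 13.51%, Ltbp3 19.25%, Ltbp1 21.87%, Tgfbr1 23.78%, Tgfbr3 27.88% and Tgfb2 36.69%. For comparison, the fibroblast marker sum was 2.33% and the macrophage marker sum 2.713%. The endothelial marker sum was 11.71% and the sum for pericytes and smooth muscle 24.44%. How much of each gene's cardiomyocyte value came from other cells was not tested. In a fit of the 24 fraction libraries, 9 of the 10 genes were lower in cardiomyocytes, where 37.3% of 15823 genes tested were higher and 42.2% lower. Of the called genes 46.9% were higher by TMM and 23.4% by library totals. Their log2 differences ran from -3.55 ± 0.66 for Ltbp2 (edgeR adjusted p = 6.4e-05) to -0.87 ± 0.24 for Tgfbr3 (0.0027). The Tgfbr3 value was -1.31 without replicate 3 of wild type cardiomyocytes, which had 120 CPM beside 57.3 and 58.1.

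Tgfb2 missed the threshold in that comparison (log2 -0.48 ± 0.24, edgeR adjusted p = 0.068). With the replicate number as a block it passed (-0.49, adjusted p = 0.0162, which makes 10 of 10 genes lower), and so did library totals (-1.45, adjusted p = 1e-06). With library totals the values of the other 9 genes lay between -4.52 and -1.84, a shift close to that of the median gene.

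In PLNR9C vehicle the order changed for Tgfb2. It was higher in cardiomyocytes by 2.76 ± 0.23 on the log2 scale (edgeR adjusted p = 5.9e-10; 1.97 with library totals), and the other 9 genes were lower, where 37.0% of genes tested were higher and 42.2% lower. This comparison was added after the data were seen. As a share of the non-myocyte mean, Tgfb2 stood at 392.5% in PLNR9C vehicle (315.5% to 531.1% over the 3 numbered pairs) and at 359.8% in PLNR9C with JQ1. Tgfb3 stood at 29.97%, Tgfb1 at 16.8%, Tgfbr2 at 7.9% and Ltbp4 at 7.796% in PLNR9C vehicle. In wild type with JQ1, Tgfb2 stood at 47.38%.

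Across the family, 5 of 10 genes passed for genotype at 8 weeks (4 higher and 1 lower), beside 7.86% of all 15501 genes higher and 6.5% lower. Of the called genes 54.8% were higher by TMM and 86.1% by library totals. The median log2 change was 0.16 over the 10 genes and 0.01 over all genes. At 20 weeks all 10 passed, 8 higher and 2 lower, beside 23.3% of 15971 genes higher and 21.4% lower (52.2% of calls higher by TMM and 79.8% by library totals), with medians of 0.68 and 0.01. Between the ages, the genotype difference itself changed for 6 of the 10 (Tgfb2, Tgfb3, Ltbp2, Ltbp3, Ltbp4 and Tgfbr3), beside 15.5% of 16220 genes. Of those calls 45.2% were positive by TMM and 69.5% by library totals.

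In cardiomyocytes 5 of 10 passed for genotype (4 higher and 1 lower), beside 14.3% of 14142 genes higher and 11.8% lower (54.8% of calls higher by TMM, 74.9% by library totals). In non-myocytes 5 of 10 passed (4 higher and 1 lower), beside 10.3% of 15347 genes higher and 8.32% lower. The fractions shared Ltbp1, Ltbp2 and Ltbp3 among their calls. Only Tgfb2 and Tgfb3 had a genotype difference that itself differed between the fractions at the threshold, beside 8.33% of 15823 genes (49.1% of those calls positive by TMM, 83.3% by library totals).

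For JQ1 in PLNR9C ventricle, 2 genes rose and 4 fell at 8 weeks, beside 15.5% of all genes higher and 17.7% lower (46.7% of calls higher by TMM, 25.0% by library totals). At 20 weeks 2 rose and 6 fell, beside 15.9% and 16.1% (49.7% and 35.5%). For JQ1 in wild type ventricle, 2 rose and 2 fell at 8 weeks, beside 14.3% and 15.4% (48.1% and 35.7%), and 2 rose and 4 fell at 20 weeks, beside 12.3% and 14.9% (45.2% and 25.7%). The 2 that rose were Tgfb1 and Tgfbr1 each time. The PLNR9C vehicle libraries serve both the genotype comparison and the JQ1 comparison in PLNR9C, so the opposite signs of Tgfb2, Tgfb3, Ltbp2, Ltbp3, Ltbp4 and Tgfbr2 at 20 weeks rest on shared controls and are given side by side only.

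In non-myocytes JQ1 raised 1 gene and lowered 3 in PLNR9C (Tgfb3, at the edge of the threshold, is among the 3), beside 16.7% higher and 19.5% lower (46.2% of calls higher by TMM, 24.7% by library totals), and raised 2 and lowered 3 in wild type, beside 18.0% and 20.0% (47.4% and 23.3%). In cardiomyocytes JQ1 raised Tgfb1 alone in PLNR9C, beside 6.14% of genes higher and 4.33% lower (58.6% of calls higher by TMM, 45.8% by library totals). In wild type cardiomyocytes edgeR called 0 of 10, beside 1.7% and 1.93% (46.8% and 21.0%), with 1 gene at an unadjusted p under 0.05, and DESeq2 also called 0. Over all genes, JQ1 calls in PLNR9C cardiomyocytes ran from 643 without replicate 2 of the JQ1 group to 2513 without its replicate 1.

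The JQ1 effect differed between genotypes for Tgfb3 and Ltbp3 in 20-week ventricle, beside 0.357% of genes (42.1% of those calls positive by TMM, 59.0% by library totals). For the 8-week ventricle edgeR called 0 of 10 genes, beside 0.00645%, with 2 at an unadjusted p under 0.05. It called 0 in cardiomyocytes, beside 0.0%, with 0 at an unadjusted p under 0.05, and 0 in non-myocytes, beside 0.0%, with 2. DESeq2 called 0 in each of these 3. The JQ1 effect in PLNR9C differed between cardiomyocytes and non-myocytes for 0 of 10 genes by edgeR and by DESeq2, beside 2.43% of genes, with 2 at an unadjusted p under 0.05. Without replicate 1 of PLNR9C cardiomyocytes with JQ1, Ltbp4 and Tgfbr2 passed (log2 1.32 and 1.17).

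**Figure D5:**
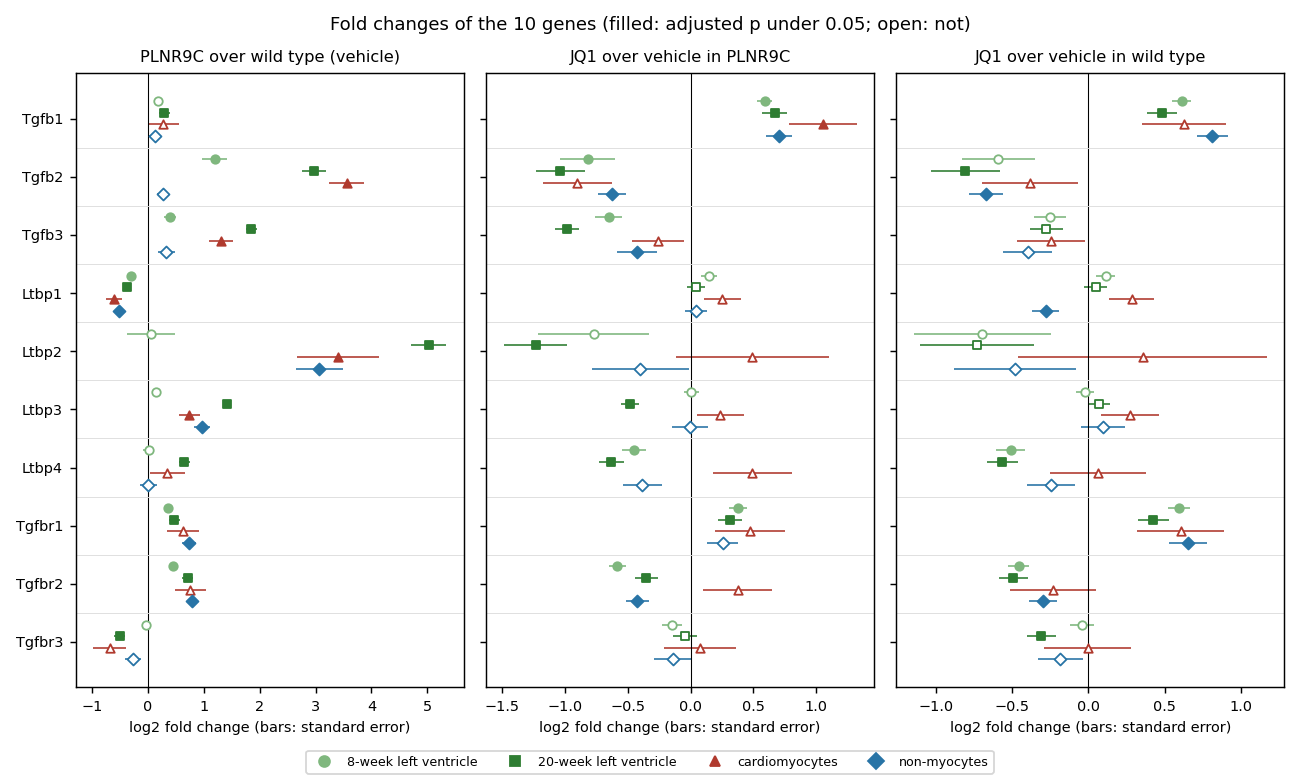
Log2 fold changes of the 10 genes with their standard errors, for genotype and for JQ1 in each genotype, in 4 sample types; filled symbols have an adjusted p under 0.05. Tgfb2 has its largest genotype value in cardiomyocytes (3.56) and Ltbp2 in 20-week ventricle (5.02), and Tgfb1 lies right of 0 in all 8 JQ1 comparisons.

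Other genes of the pathway were counted from lists, against the shares of all genes given above for each comparison. Of 21 genes for release of the latent complex and its anchoring in matrix, 7 rose and 0 fell with genotype at 8 weeks. All genes stood at 7.86% higher and 6.5% lower there. At 20 weeks 15 rose and 2 fell, beside 23.3% and 21.4%. The 4 with the smallest p at 20 weeks were Bgn (biglycan, log2 2.45), Itgb5 (an integrin chain, 0.94), Dcn (decorin, 1.00) and Thbs1 (thrombospondin 1, 1.72). In 20-week PLNR9C ventricle JQ1 raised 1 and lowered 7, beside 15.9% of all genes higher and 16.1% lower. Thbs1 changed by -1.01 and Fbn2 (fibrillin 2) by -1.64. In the fractions, genotype raised 9 of 19 tested in cardiomyocytes, beside 14.3% of all genes. In non-myocytes 11 of 20 tested rose and 1 fell, beside 10.3% and 8.32%. In non-myocytes JQ1 lowered Plau (urokinase) by 1.32 in PLNR9C and by 0.88 in wild type on the log2 scale, and Itgb8 (an integrin chain that activates latent TGF-beta) by 1.20 and 1.35.

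Of 20 genes that TGF-beta is known to induce in fibroblasts, 7 of 18 tested rose and none fell in PLNR9C ventricle at 8 weeks, beside 7.86% of all genes higher. At 20 weeks 18 of 19 tested rose and none fell, beside 23.3% higher, with a median log2 change of 2.35 (0.01 over all genes). They included Col1a2 (a collagen chain, log2 2.35), Timp1 (a protease inhibitor, 4.21), Nox4 (an oxidase, 4.41) and Fn1 (fibronectin, 1.87). Of the 12 fibroblast markers, 8 rose at 8 weeks and 11 at 20 weeks in the same comparison, beside 7.86% and 23.3% of all genes. In cardiomyocytes 10 rose and in non-myocytes 8, beside 14.3% and 10.3% of all genes. What part these markers' cells play in the change of the targets was not tested. With JQ1 at 20 weeks 4 of 19 fell in PLNR9C, namely Nox4 (log2 -1.50), Comp (-2.45), Tgfbi (-0.53) and Pmepa1 (-0.32), and none rose. All genes stood at 15.9% higher and 16.1% lower there. At 8 weeks 3 rose and 2 fell, beside 15.5% and 17.7%. With both directions together, the share called was below that of all genes at each age. In PLNR9C non-myocytes 14 of 20 rose with genotype and 2 fell (10.3% and 8.32% of all genes), and JQ1 raised 2 and lowered 2 (16.7% and 19.5%). The 2 that fell, named after their values were seen, were Smad7, an inhibitory Smad (-0.69), and Acta2, smooth muscle actin (-0.91). In cardiomyocyte libraries 13 of 18 tested rose with genotype, beside 14.3% of all genes higher. Acta2 was among the 13 (1.87).

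Of 17 Smads and feedback regulators, 7 rose and 1 fell with genotype at 20 weeks, led by Pmepa1, a feedback inhibitor (log2 1.03), and Tgif1, a corepressor (1.20). All genes stood at 23.3% higher and 21.4% lower, so the share called, both directions together, was near that of all genes. JQ1 raised Ski, a corepressor of SMAD signalling, in all 8 JQ1 comparisons, by 0.54 to 0.94 on the log2 scale, and lowered Smad9, a receptor-regulated Smad of BMP signalling, in 7 of the 8. Both were followed across comparisons after their values were seen. Of the 17, JQ1 raised 5 and lowered 1 in PLNR9C at 8 weeks, beside 15.5% of all genes higher and 17.7% lower. It raised 2 and lowered 4 at 20 weeks, beside 15.9% and 16.1%. Both counts were near the share of all genes with both directions together. Of 10 accessory and other type I and II receptors of the superfamily, 3 rose and 1 fell with genotype at 20 weeks, again near the share of all genes (23.3% and 21.4%). With JQ1 in PLNR9C 0 rose and 4 fell at each age, beside 15.5% and 17.7% at 8 weeks and 15.9% and 16.1% at 20 weeks. Among those 4, Acvrl1 (ALK1) fell by 0.44 and 0.49 and Cd109 (a TGF-beta coreceptor) by 0.88 and 0.78 on the log2 scale.

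The patterns most like each ligand were sought among 11351 genes over the 16 group means of log2 CPM. Points share libraries and cell types, so the correlations describe and test nothing. For Tgfb2 the closest were Adamts20 (Pearson r = 0.984), 1700025G04Rik (0.969) and Plcg2 (0.962), and after centring each sample type on its own mean Bcl2 (0.994), Tspan17 (0.990) and 1700025G04Rik (0.987). For Tgfb1 they were Wdr91 (0.994), Chst7 (0.993) and Anks6 (0.993), and after centring Ahi1 (0.985), Papss1 (0.985) and Stard5 (0.983). For Tgfb3 they were Sh3rf3 (0.987), Endod1 (0.984) and Mtap6 (0.981), and after centring Stam2 (0.972), AK015956 (0.970) and Pcdhgc5 (0.969). The choice depended on the measure, and by Spearman correlation most of these genes left the closest 3. Chst7 came to rank 92 for Tgfb1 and Mtap6 to rank 32 for Tgfb3, while Adamts20 stood at rank 2 for Tgfb2.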

How the data were processed

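RNA-seq of 48 mouse heart libraries was analysed. The authors deposited raw read counts per gene beside RPKM values, per the file headers. Alignment tool STAR 2.4.1b and genome GRCm38 (mm10) are listed in the submitters' processing notes. The sources used here do not give the counting tool, annotation or strand setting. The deposited RPKM values gave 1 length per gene within 0.1% in all genes checked.

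Counts were tested with edgeR 4.0.16 in R 4.3.3: filterByExpr, TMM scaling, robust quasi-likelihood fits per sample type (12 libraries) or across fractions or ages (24 libraries), and Benjamini-Hochberg adjustment over all genes, with 0.05 as threshold. The standard error is the log2 fold change divided by the root of F. P-values measure the spread between libraries. The procedure was tested on simulated data. It missed many of the smaller changes there, and the criterion for passing that test was eased after a first run, so a missed threshold does not show that groups did not differ.

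The 10 genes and all lists were chosen with earlier results of these data known. In each list at most 4 called genes with the smallest p were named per comparison, and for each ligand the 3 genes with the highest correlation among genes with a mean of at least 5 CPM. Alternatives were other scaling, DESeq2 1.42.0, other filters, no robust estimation, a replicate block and leaving out each library. Cardiomyocyte and non-myocyte libraries with the same number deviated together (correlations of 0.128 to 0.32 in 12 of 12 pairs). Their numbers were therefore taken as pairs in the replicate block and in the ranges of ratios between fractions. The main tests between fractions used group means and no pairs. Depth is given with the results.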

Additional observations from a re-analysis of the deposited data

Results flagged for a closer look

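Differences between groups in the same contrast, each tested as an interaction with edgeR, were found for 6 of the 10 genes. The genotype difference in ventricle was larger at 20 than at 8 weeks for Tgfb2 (by 1.78 on the log2 scale), Tgfb3 (1.46), Ltbp2 (4.98), Ltbp3 (1.28) and Ltbp4 (0.64), and it changed by -0.47 for Tgfbr3, which was called lower at 20 weeks alone. The 2 ages were deposited in separate tables, so age and set cannot be told apart.

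The genotype difference was larger in cardiomyocytes than in non-myocytes for Tgfb2 (by 3.24) and Tgfb3 (by 0.93). The JQ1 effect in 20-week ventricle was lower in PLNR9C than in wild type for Tgfb3 (-0.71) and Ltbp3 (-0.56). The Tgfb3 and Ltbp3 calls in this paragraph and the Tgfbr3 call between the ages were lost on leaving out single libraries, as given with the results.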

How the results depend on the processing

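Under the alternatives run, no called value of the 10 genes changed sign. Of 4590 values under alternatives, 124 that passed in neither fit changed sign. Leaving out single libraries lost 60 calls and gained 27 among 3120 values of the 10 genes. Library totals in place of TMM lost 6 and gained 11 over 21 comparisons. RLE scaling lost 1, DESeq2 gained 4, no filter on low counts lost 2 and gained 1, and no robust estimation lost 2 and gained 2. A filter on a mean of at least 10 reads changed none.

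For the interaction in 20-week ventricle 1 gene passed without robust estimation and 1 with library totals, and 0 to 2 when single libraries were left out. For JQ1 in PLNR9C cardiomyocytes 2 passed with DESeq2, 2 without robust estimation, 2 with the replicate block, and 0 to 4 with single libraries left out. Leaving out libraries gave 0 to 1 for JQ1 in wild type cardiomyocytes, 3 to 6 for JQ1 in wild type non-myocytes, 1 to 2 for the genotype difference between fractions and 0 to 2 for the JQ1 difference between fractions.

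With the replicate block, Tgfb2 passed in PLNR9C cardiomyocytes with JQ1 (log2 -0.87, adjusted p = 0.0299) and Tgfb3 in 20-week wild type ventricle with JQ1 (-0.28, 0.0362). Tgfb3 was lost in PLNR9C non-myocytes with JQ1 (-0.43, 0.0602). The block changed no other call of the 10 genes beyond Tgfb2 between fractions, given above. Within sample types, libraries with the same number in different groups had correlations from -0.2 to 0.298. These passed 0.1 in 1 and 2 of 18 pairs in 8-week and 20-week ventricle, 3 of 18 in cardiomyocytes and 5 of 18 in non-myocytes. The main fits took no pairs there.

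Over all genes, DESeq2 called 11 genes against 1 for the interaction at 8 weeks, 213 against 57 at 20 weeks, 4 against 0 in cardiomyocytes and 63 against 0 in non-myocytes. It called 847 against 513 for JQ1 in wild type cardiomyocytes and 621 against 384 for the JQ1 difference between fractions. With the block these were 92 for the 20-week interaction and 919 for the JQ1 difference. With no filter they were 8 and 127 for the interactions at 8 and 20 weeks and 2 in non-myocytes, and without robust estimation 0 at 8 weeks. Leaving out single libraries, calls ran from 1267 to 2329 for genotype at 8 weeks, 109 to 773 for JQ1 in wild type cardiomyocytes, 159 to 1804 for the JQ1 difference between fractions, 8 to 87 for the 20-week interaction, 0 to 22 for the 8-week one and 0 to 225 for that in non-myocytes. The causes were not tested. With CPM in place of RPKM, Tgfb1 was the highest ligand in 11 groups, Ltbp4 the highest binder in 16 and Tgfbr2 the highest receptor in 8. With 3 libraries a group the precision was lowest in cardiomyocytes: the standard error of the Tgfb1 genotype difference was 0.27 there and 0.06 to 0.10 in the other sample types.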

Other observations

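Other ligands and ligand inhibitors of the superfamily, 17 genes of which 13 were tested in ventricle, were counted in the same way. In 20-week PLNR9C ventricle 5 rose and 1 fell, beside 23.3% of all genes higher and 21.4% lower, so the share called, both directions together, was near that of all genes. Gdf15, a stress-induced cytokine, rose by 4.65 on the log2 scale, Bmp2 by 2.04 and Fstl3, an inhibitor of activin and myostatin, by 1.29, and Bmp7 changed by -0.87. In cardiomyocytes 3 of 12 tested rose (beside 14.3% of all genes), namely Gdf15 (4.19), Bmp2 (2.58) and Fstl3 (2.10), and in non-myocytes 0 rose and 2 fell (beside 10.3% and 8.32%), Nog (-1.78) and Bmp2 (-0.79). The difference between the fractions was not read from these calls.

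In PLNR9C ventricle with JQ1, 1 of 13 rose and 3 fell at 20 weeks, beside 15.9% and 16.1% of all genes, again near that share with both directions together, and 1 rose and 6 fell at 8 weeks (15.5% and 17.7%). Inhba, an activin subunit, changed by -1.68 in PLNR9C and -2.62 in wild type ventricle at 20 weeks, and by -1.16 and -1.35 in non-myocytes. Inhbb changed by -1.10 and -1.57 in ventricle at 20 weeks. Gdf11 rose by 1.24 in PLNR9C ventricle at 20 weeks and by 1.08 and 1.01 in non-myocytes of PLNR9C and wild type.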
